A study of Mus musculus with 6 samples.

Results

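The genes of the interferon response and of MHC class I antigen presentation were compared between aortic valves of newborn and adult mice. The set was given as 56 gene symbols, and every symbol was found by its gene name among the 46983 annotated genes, giving 57 rows because Gbp6 stands for 2 Ensembl genes. The libraries came from wild type C57BL/6J mice at postnatal day 2 (PND2) or at an age of 4 months, and each age was represented by 3 libraries that pooled the valves of 5 to 6 mice. Age is the difference between the groups that the labels give, and the sex of the animals was not given in the sources used here. Each library was a pool, so the values describe means over several mice and hold no information on single animals. The recovered library totals ran from 23810507 to 38994657, so that 1 read per kilobase of exon equalled between 0.0256 and 0.0420 RPKM (reads per kilobase of exon, scaled to the library total). Levels below are given as RPKM, means are given ± SD over 3 libraries, and fold changes are ratios of mean RPKM. Tests were made with limma on log2(RPKM + 0.1), a scale that understates changes of genes with low RPKM, with Benjamini-Hochberg adjustment over the 25903 genes tested.

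Interferons are secreted proteins that are made after cells sense foreign or misplaced nucleic acid. Type I interferons signal through the Ifnar1 and Ifnar2 receptor chains to a complex that holds Stat2 and Irf9, while interferon gamma signals through Ifngr1 and Ifngr2. The activated factors switch on genes for nucleic acid sensors, inhibitors of viral RNA, large GTPases and the machinery that cuts proteins into peptides and shows them on MHC class I molecules at the cell surface. Class I molecules are displayed by most nucleated cells, so that the genes below are not markers of any 1 cell type.

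All 57 rows had enough signal to be tested. At 4 months 48 of the 57 were higher at an adjusted p under 0.05, against 14.7% of all genes tested. A single member, Trim25, was lower, against 21.1% of all genes tested, and 8 did not pass in either direction. With a fold change above 2 on the fitted scale as a further requirement, 38 members were higher, against 8.72% of all genes. In 49 members every 4 month library lay above every PND2 library, which was so for 20.0% of all genes. The reverse held for Trim25 and Ifitm1. The share of all genes in that direction is not given here, so this count cannot be set against it. The median log2 fold change was 1.53 over the members and -0.14 over all genes tested. The largest median was that of the MHC class I presentation genes at 2.27, and the smallest was that of the nucleic acid sensors at 0.87.

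**Figure D1:**
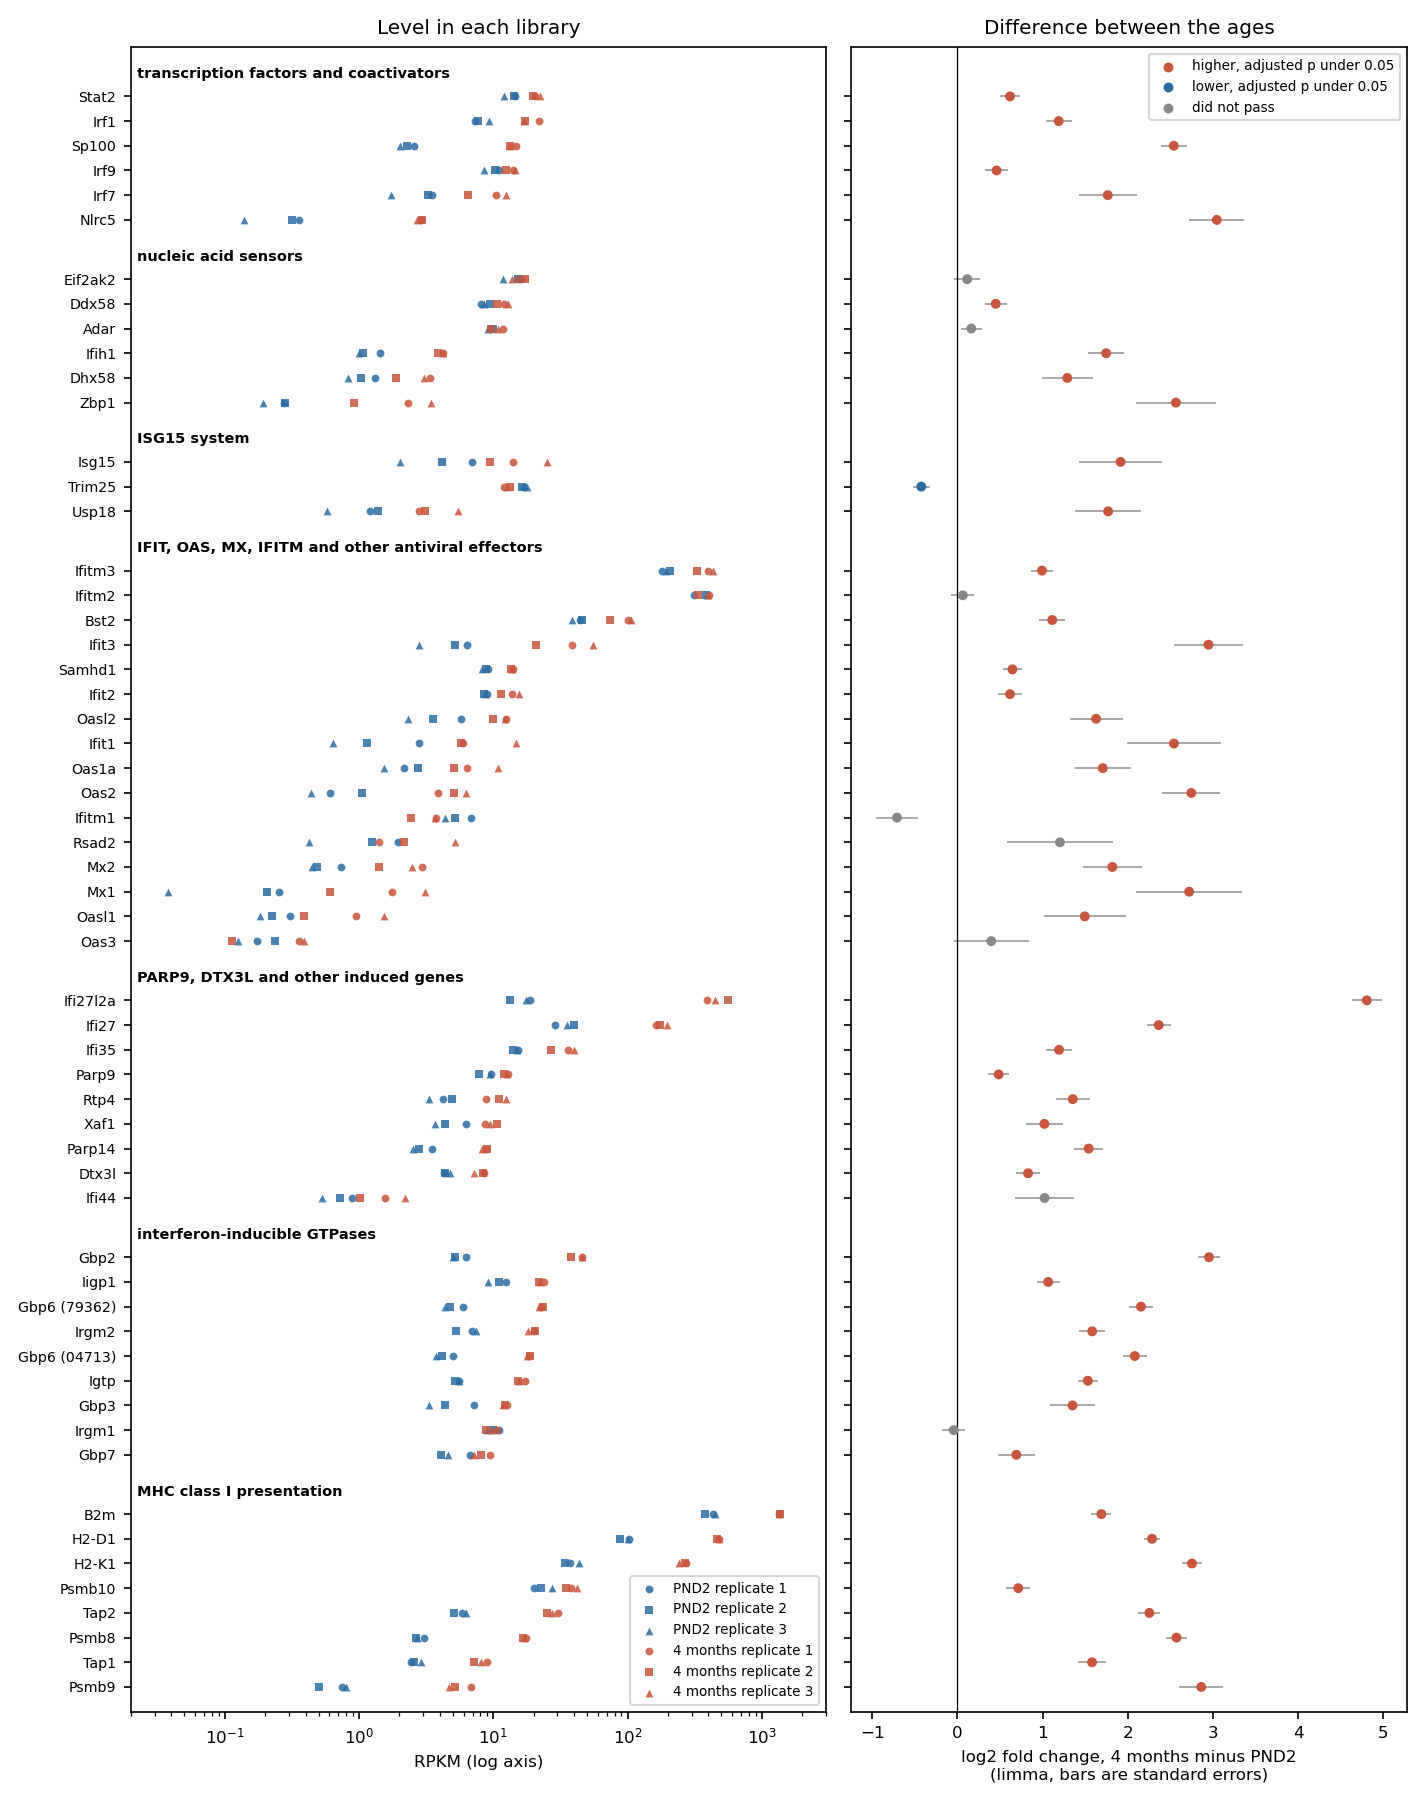
Level of each member in the 6 libraries (left, RPKM on a log axis, a symbol for each replicate) and its log2 fold change from PND2 to 4 months (right, bars are limma standard errors), grouped by role. 48 of the 57 rows lie to the right of 0 with an adjusted p under 0.05, Trim25 lies to the left, and Ifi27l2a lies farthest to the right at 4.81. The 2 rows named Gbp6 carry the last digits of their Ensembl identifiers.

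The factors that interferons activate bind short DNA elements, which were looked for near the transcript starts of the members. RefSeq promoter windows of 300 bases on GRCm38.p6, reaching from 250 bases before a transcript start to 50 after it, were matched for 41 of the 56 symbols. They were searched on both strands for the core of the interferon-stimulated response element (ISRE), read as GAAA, any 2 bases and GAAA, and for the core of the gamma-activated site (GAS), TTCNNNGAA. These motifs may overlap each other in a window. The stretches printed here are those of genes whose values are described later, and capitals mark the motif, which reads as TTTC, any 2 bases and TTTC where it lies on the other strand. The first group holds the ISRE core and belongs to genes that were higher at 4 months.
Isg15, chr4:156200855-156200916, minus strand: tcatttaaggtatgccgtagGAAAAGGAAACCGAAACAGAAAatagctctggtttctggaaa
Ifit1, chr19:34640765-34640833, plus strand: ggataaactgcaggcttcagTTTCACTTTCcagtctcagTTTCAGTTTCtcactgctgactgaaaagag
Ifit3, chr19:34583353-34583402, plus strand: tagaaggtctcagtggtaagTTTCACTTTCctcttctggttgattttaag
Bst2, chr8:71537567-71537622, minus strand: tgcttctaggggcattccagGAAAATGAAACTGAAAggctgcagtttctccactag
Oas1a, chr5:120907526-120907565, minus strand: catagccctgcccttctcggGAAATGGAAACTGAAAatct
Gbp2, chr3:142620584-142620633, plus strand: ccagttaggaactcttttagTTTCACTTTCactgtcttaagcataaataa
Igtp, chr11:58199502-58199551, plus strand: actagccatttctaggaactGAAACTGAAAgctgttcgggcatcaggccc
Irgm2, chr11:58214893-58214942, plus strand: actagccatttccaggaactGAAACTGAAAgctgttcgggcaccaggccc
B2m, chr2:122147528-122147577, plus strand: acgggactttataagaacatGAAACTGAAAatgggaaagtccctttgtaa
Stat2, chr10:128270256-128270305, plus strand: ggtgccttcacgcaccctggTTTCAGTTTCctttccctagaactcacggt

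The same core stands in the promoters of members that did not pass the test, 3 of which are shown for comparison.
Irgm1, chr11:48871421-48871470, minus strand: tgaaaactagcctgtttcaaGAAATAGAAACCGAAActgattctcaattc
Ifitm2, chr7:140955978-140956027, minus strand: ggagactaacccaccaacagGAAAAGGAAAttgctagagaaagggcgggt
Rsad2, chr12:26456543-26456592, minus strand: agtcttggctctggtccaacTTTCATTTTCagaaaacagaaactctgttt

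The GAS core, an element of the response to interferon gamma, is shown for a transcription factor and for an induced proteasome subunit that were both higher at 4 months.
Irf1, chr11:53769904-53769952, plus strand: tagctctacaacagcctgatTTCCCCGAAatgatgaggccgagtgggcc
Psmb8, chr17:34198078-34198126, plus strand: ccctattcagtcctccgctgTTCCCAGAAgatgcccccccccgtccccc

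The ISRE core was found in windows of 20 of the 41 members (48.8%, 95% Wilson interval 34.3 to 63.5%) and in those of 1079 of 27025 genes (3.99%). Counted by window, it stood in 40.8% of the 49 member windows and 3.44% of all 32851 windows. The GAS core was found in 13 of the 41 members (31.7%, interval 19.6 to 47.0%) and in 9.55% of all genes. Igtp and Irgm2, neighbouring GTPase genes, carried the same core in stretches that were identical at 48 of 50 bases. Among the 41 matched members, presence of the core did not separate those that were higher. The 15 symbols without a matched window, Ifi27l2a among them, were all higher at 4 months and lie outside this comparison. Of the 20 members with the ISRE core 15 were higher in the adult valves, and their median log2 fold change was 1.28. Of the 21 matched members without it 17 were higher, with a median of 1.19. All 6 matched GTPases carried the ISRE core, while among the 7 matched MHC class I presentation genes it was found only in B2m. A motif in a window is a match of letters and says nothing of binding in these valves. The members were picked as interferon response genes, so their share above that of all genes is not a result about these valves. The intervals treat members as independent, which neighbours with similar promoters are not.

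The transcription factors and coactivators of the response were all higher at 4 months, 6 of 6, with fold changes of the means from 1.38 to 10.5. Nlrc5, the coactivator that turns on MHC class I genes, had the largest of these changes. Its RPKM was 0.359, 0.317 and 0.139 in the PND2 libraries and 2.91, 2.95 and 2.70 in those at 4 months. The PND2 libraries were spread over more than 2-fold, while those at 4 months lay close together and far above them. The log2 fold change was 3.05 with an SE of 0.32 (limma, adjusted p = 0.00059).

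Sp100, a component of nuclear bodies that restricts viral genomes, stood at 2.58, 2.29 and 2.02 RPKM at PND2 and at 14.7, 13.3 and 13.3 RPKM at 4 months. The ages were separated by more than 5-fold with little spread within either (log2 fold change 2.54, SE 0.15, limma, adjusted p = 6.4e-05). Irf7, the factor that amplifies type I interferon production, was 3.52, 3.24 and 1.72 RPKM at PND2 and 10.5, 6.45 and 12.4 RPKM at 4 months. Its levels did not overlap between the ages, but the lowest adult library lay only moderately above the highest newborn one (log2 fold change 1.77, SE 0.34, limma, adjusted p = 0.0066). Irf1, which acts downstream of interferon gamma and carries the GAS core shown above, was 7.25, 7.72 and 9.27 RPKM at PND2 and 21.7, 17.2 and 16.8 RPKM at 4 months. This was a rise of 2.30-fold, with a log2 fold change of 1.19 and an SE of 0.15 (limma, adjusted p = 0.0013).

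Stat2 and Irf9, the parts of the type I signalling complex, were abundant at both ages and rose least. Stat2 was 14.5, 14.3 and 12.0 RPKM at PND2 and 20.5, 19.8 and 22.3 RPKM at 4 months, a 1.54-fold difference (log2 fold change 0.62, SE 0.12, limma, adjusted p = 0.0061). Irf9 was 11.0, 10.3 and 8.50 RPKM at PND2 and 14.1, 12.3 and 14.6 RPKM at 4 months, with a log2 fold change of 0.46 and an SE of 0.14. The groups did not overlap for either gene, but the Irf9 call (limma, adjusted p = 0.038) was lost without 4 months replicate 3, at an adjusted p of 0.12. Irf9 also shares 123 exonic bases with Rnf31 on the same strand, so that its value is uncertain.

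The nucleic acid sensors were divided. Of 6 members 4 were higher and 2 did not pass. Zbp1, a sensor of left-handed nucleic acid, was 0.276, 0.279 and 0.194 RPKM at PND2 and 2.31, 0.916 and 3.44 RPKM at 4 months. All adult libraries were above all newborn ones, though they differed among themselves by more than 2-fold (log2 fold change 2.57, SE 0.47, limma, adjusted p = 0.0058). Ifih1, which encodes the cytoplasmic RNA sensor MDA5, was 1.44, 1.06 and 0.992 RPKM at PND2 and 4.22, 3.90 and 4.18 RPKM at 4 months. That difference of 3.52-fold came with tight groups (log2 fold change 1.75, SE 0.21, limma, adjusted p = 0.0011). Dhx58, which encodes LGP2, was 1.31, 1.04 and 0.825 RPKM at PND2 and 3.35, 1.90 and 3.05 RPKM at 4 months. Its groups did not overlap (log2 fold change 1.29, SE 0.30, limma, adjusted p = 0.014), but the call was lost without 4 months replicate 3 at an adjusted p of 0.054. Ddx58, which encodes RIG-I, was 8.66 ± 0.684 RPKM at PND2 and 11.9 ± 1.18 RPKM at 4 months (limma, adjusted p = 0.032, but 0.11 without 4 months replicate 3).

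Eif2ak2, the RNA-activated kinase PKR, was the most abundant of the sensors and overlapped between the ages. Its RPKM was 16.2, 15.2 and 11.8 at PND2 and 15.7, 17.1 and 13.8 at 4 months. The log2 fold change was 0.12, with a 95% interval from -0.24 to 0.47 (limma, adjusted p = 0.59). Adar, an RNA-editing enzyme, was 9.53 ± 0.404 and 10.7 ± 1.11 RPKM, with an interval from -0.13 to 0.46 (limma, adjusted p = 0.35). For this pair of genes a change of 2-fold lay outside the interval. Adar shares 1365 exonic bases with Chrnb2 on the opposite strand.

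The ISG15 system moved in both directions. Isg15, a ubiquitin-like protein attached to other proteins, was 6.92, 4.16 and 2.03 RPKM at PND2 and 14.1, 9.50 and 25.1 RPKM at 4 months. The libraries of each age were spread over more than 2-fold and still did not overlap (log2 fold change 1.92, SE 0.49, limma, adjusted p = 0.021). Without 4 months replicate 3 the adjusted p was 0.066. Usp18, the enzyme that removes Isg15 and dampens receptor signalling, was 1.21, 1.37 and 0.576 RPKM at PND2 and 2.81, 3.09 and 5.50 RPKM at 4 months (log2 fold change 1.77, SE 0.39, limma, adjusted p = 0.012). Trim25, a ligase that activates RIG-I and can attach Isg15, was the single member called lower. It was 17.0, 16.2 and 18.0 RPKM at PND2 and 12.0, 13.3 and 12.7 RPKM at 4 months, with no overlap. Its log2 fold change of -0.42 (SE 0.10, limma, adjusted p = 0.017) was smaller than that of most members. It did not pass without PND2 replicate 3 (adjusted p 0.072), without 4 months replicate 1 or 3, or after median scaling, in which the median change of all genes was -0.02 instead of -0.14.

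The antiviral effectors were the largest group, with 12 of 16 higher. The IFIT proteins bind foreign RNA. Ifit3 was 6.33, 5.18 and 2.78 RPKM at PND2 and 38.4, 21.0 and 55.3 RPKM at 4 months. Every adult library lay more than 3-fold above the highest newborn one, and 4 months replicate 3 was the highest (log2 fold change 2.95, SE 0.41, limma, adjusted p = 0.0018). Ifit1 was 2.77, 1.15 and 0.643 RPKM at PND2 and 5.93, 5.76 and 14.8 RPKM at 4 months (log2 fold change 2.54, SE 0.56, limma, adjusted p = 0.011). Ifit2 was the steadiest of the family within an age and rose by a smaller factor, from 8.74 ± 0.198 to 13.6 ± 2.01 RPKM (limma, adjusted p = 0.012).

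The OAS proteins make the short oligoadenylates that activate RNase L. Oas2 was 0.605, 1.05 and 0.438 RPKM at PND2 and 3.87, 5.09 and 6.31 RPKM at 4 months, a difference of 7.29-fold (log2 fold change 2.75, SE 0.34, limma, adjusted p = 0.0012). Oas1a rose from 2.14 ± 0.594 to 7.43 ± 3.02 RPKM and Oasl2 from 3.88 ± 1.75 to 11.5 ± 1.40 RPKM, each at a limma adjusted p of 0.0066. Oas3 was low at both ages, 0.179 ± 0.0555 and 0.287 ± 0.151 RPKM, and did not pass (limma, adjusted p = 0.52). Reads of Oas1a may be shared with its near-identical neighbours, so the level of that gene is uncertain.

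Mx1, a GTPase that blocks influenza-like viruses, was 0.253, 0.207 and 0.0375 RPKM at PND2 and 1.77, 0.611 and 3.12 RPKM at 4 months. These values rest on 36, 23 and 4 reads at PND2 and on 241, 53 and 329 reads at 4 months. The groups did not overlap, and each was spread over more than 5-fold (log2 fold change 2.72, SE 0.63, limma, adjusted p = 0.014). Mx2 rose from 0.557 ± 0.158 to 2.28 ± 0.785 RPKM (limma, adjusted p = 0.0066), and the annotation lists it as a polymorphic pseudogene. Many inbred strains are known to carry defective Mx genes, so that these levels are of RNA only.

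The membrane-bound effectors were among the most abundant members. Ifitm2, which keeps viruses from fusing with the cell, had the highest mean of the effectors over all 6 libraries and did not differ detectably. It was 312, 381 and 394 RPKM at PND2 and 404, 333 and 400 RPKM at 4 months, and the libraries of the ages were interleaved (log2 fold change 0.07, 95% interval -0.25 to 0.38, limma, adjusted p = 0.74). Its close relative Ifitm3 was 182, 207 and 192 RPKM at PND2 and 400, 330 and 433 RPKM at 4 months, a 2.00-fold rise (log2 fold change 0.99, SE 0.13, limma, adjusted p = 0.0013). Ifitm1 was the third pattern, with 5.43 ± 1.23 RPKM at PND2 and 3.29 ± 0.722 RPKM at 4 months. It did not pass (limma, adjusted p = 0.057), although every 4 month library lay below every PND2 library. All 3 lie within a stretch of chromosome 7, from base 140954839, where Ifitm2 begins, to base 141010770, where Ifitm3 ends (mm10). Whether the change of Ifitm3 differed from that of Ifitm2 was not tested.

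Bst2, the tether that holds budding virions on the cell, rose from 42.8 ± 3.89 to 93.6 ± 17.4 RPKM (limma, adjusted p = 0.0018). Samhd1, which depletes deoxynucleotides, rose from 8.74 ± 0.512 to 13.7 ± 0.204 RPKM (limma, adjusted p = 0.0037). Rsad2, which makes a chain-terminating nucleotide, was 1.95, 1.24 and 0.426 RPKM at PND2 and 1.40, 2.14 and 5.17 RPKM at 4 months. Its libraries overlapped and were spread more widely within an age than between the means (limma, adjusted p = 0.17).

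Of the 9 members grouped around Parp9 and Dtx3l 8 were higher, and they include the largest change in the set. Ifi27l2a, a small protein named for its induction by interferon alpha, was 18.8, 13.4 and 17.5 RPKM at PND2 and 389, 560 and 451 RPKM at 4 months. The rise of its mean was 28.2-fold, with a log2 fold change of 4.81 and an SE of 0.17 (limma, adjusted p = 1.5e-05). Its mean lay below those of Ifitm2 and Ifitm3 at PND2 and above them at 4 months in RPKM. Ifi27 is its neighbour on chromosome 12, at 103434211 to 103440239, with Ifi27l2a at 103442167 to 103443680 (mm10). Ifi27 was 28.6, 40.0 and 35.5 RPKM at PND2 and 163, 174 and 197 RPKM at 4 months (log2 fold change 2.36, SE 0.14, limma, adjusted p = 6.4e-05). No annotated gene overlaps either of these in the deposited table.

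Parp14, an enzyme that adds ADP-ribose to proteins, was 3.48, 2.81 and 2.50 RPKM at PND2 and 8.80, 8.99 and 8.18 RPKM at 4 months (log2 fold change 1.54, SE 0.17, limma, adjusted p = 0.00068). Parp9 and Dtx3l form a complex that adds ADP-ribose to ubiquitin, and their genes lie head to head with 458 shared exonic bases. Dtx3l rose from 4.48 ± 0.229 to 8.06 ± 0.716 RPKM (limma, adjusted p = 0.0039) and Parp9 from 8.97 ± 0.989 to 12.5 ± 0.458 RPKM (limma, adjusted p = 0.022, but 0.069 without 4 months replicate 3). Rtp4, Xaf1 and Ifi35 rose by 2.59-fold, 2.01-fold and 2.33-fold. Ifi44 was the member of this group that did not pass, at 0.713 ± 0.179 and 1.60 ± 0.598 RPKM (limma, adjusted p = 0.056), although its libraries did not overlap.

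The interferon-inducible GTPases, which attack the membranes around intracellular pathogens, rose in 8 of 9 rows. Gbp2 was 6.27, 5.18 and 5.03 RPKM at PND2 and 45.4, 38.2 and 46.0 RPKM at 4 months. This was the largest change of the group, 7.86-fold, with close replicates at each age (log2 fold change 2.95, SE 0.13, limma, adjusted p = 2.9e-05). The Gbp6 row with the longer gene span was 5.97, 4.78 and 4.36 RPKM at PND2 and 22.5, 23.4 and 21.9 RPKM at 4 months. The other Gbp6 row was 5.04, 4.13 and 3.74 RPKM at PND2 and 18.5, 18.8 and 17.9 RPKM at 4 months. The rows share 1726 exonic bases, so that they are not independent. The row with the longer span also shares 1792 exonic bases with Gbp10 on the same strand, so that its level is uncertain. The changes of both Gbp6 rows were alike, at 2.16 and 2.08 on the log2 scale (limma, adjusted p = 9.5e-05 and 0.00011).

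Not all of the immunity-related GTPases passed. Igtp rose from 5.45 ± 0.227 to 16.0 ± 1.12 RPKM and Irgm2 from 6.52 ± 1.08 to 19.6 ± 1.23 RPKM, which are 2.93-fold and 3.00-fold. These genes share 162 exonic bases on the same strand, and their promoter stretches, printed above, are similar but separate. Irgm1, a relative that controls the other GTPases, was 11.1, 9.99 and 8.99 RPKM at PND2 and 10.6, 8.83 and 9.70 RPKM at 4 months. Its libraries were interleaved, with a log2 fold change of -0.04 and a 95% interval from -0.36 to 0.27 (limma, adjusted p = 0.84), although its promoter window holds the ISRE core. Iigp1 and Gbp3 rose by 2.09-fold and 2.46-fold. Gbp7 changed least among those called, by 1.60-fold (limma, adjusted p = 0.040, but 0.11 without 4 months replicate 1).

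The MHC class I presentation genes were all higher, 8 of 8, and were among the least variable members. B2m, the light chain of every class I molecule, was 431, 378 and 449 RPKM at PND2 and 1339, 1364 and 1351 RPKM at 4 months. It had the highest mean of all members at both ages, and it rose 3.22-fold (log2 fold change 1.69, SE 0.12, limma, adjusted p = 0.00012). H2-D1, a classical heavy chain, was 103, 88.6 and 101 RPKM at PND2 and 483, 461 and 481 RPKM at 4 months (log2 fold change 2.29, SE 0.10, limma, adjusted p = 2.2e-05). H2-K1, the other classical heavy chain, was 37.5, 34.4 and 43.6 RPKM at PND2 and 271, 267 and 240 RPKM at 4 months (log2 fold change 2.75, SE 0.11, limma, adjusted p = 2.1e-05). H2-K1 lay below H2-D1 at both ages. Class I heavy chains are nearly identical in parts, and how reads matching several of them were counted is not given in the sources used here, so the division between the chains is uncertain.

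Tap1 and Tap2 form the transporter that carries peptides into the endoplasmic reticulum, and with Psmb8 and Psmb9 they fill a stretch of chromosome 17 from 34181988 to 34216321 (mm10). Tap1 was 2.42, 2.58 and 2.91 RPKM at PND2 and 8.98, 7.22 and 8.11 RPKM at 4 months (log2 fold change 1.58, SE 0.16, limma, adjusted p = 0.00053). Tap2 was 5.81, 5.06 and 6.25 RPKM at PND2 and 30.1, 25.2 and 27.4 RPKM at 4 months (log2 fold change 2.25, SE 0.13, limma, adjusted p = 5.5e-05). Both transporter genes were well above their newborn level in every adult library.

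Psmb8, Psmb9 and Psmb10 are the catalytic subunits that interferon induces, and they replace Psmb5, Psmb6 and Psmb7 in the immunoproteasome. Psmb8 was 3.05, 2.63 and 2.69 RPKM at PND2 and 17.5, 16.7 and 16.9 RPKM at 4 months (log2 fold change 2.57, SE 0.13, limma, adjusted p = 3.5e-05). Psmb9 was 0.750, 0.501 and 0.794 RPKM at PND2 and 6.84, 5.19 and 4.70 RPKM at 4 months (log2 fold change 2.86, SE 0.26, limma, adjusted p = 0.00033). Psmb9 shares 212 exonic bases with Tap1 on the opposite strand, which leaves its low newborn level uncertain. Psmb10 was already abundant at PND2, at 19.9, 22.7 and 27.4 RPKM, and reached 37.6, 34.8 and 42.3 RPKM at 4 months (log2 fold change 0.72, SE 0.14, limma, adjusted p = 0.0074).

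The constitutive partners did not rise. Psmb5 was 88.3 ± 9.64 and 70.9 ± 2.82 RPKM, and Psmb6 was 95.2 ± 10.5 and 84.6 ± 5.65 RPKM, and neither passed (limma, adjusted p = 0.055 and 0.29). Psmb7 fell from 57.5 ± 1.93 to 47.8 ± 2.07 RPKM (limma, adjusted p = 0.042, but 0.14 without PND2 replicate 3), and did not pass after median scaling or quantile normalization. As a share of the summed RPKM of the 6 catalytic subunits, the induced ones made up 9.77, 9.34 and 10.9% at PND2 and 22.9, 22.2 and 23.9% at 4 months. The means were 10.01 ± 0.813% and 23.02 ± 0.839%, a difference of 13.0 percentage points with no overlap. An exact 2-sided permutation test gave p = 0.1, the smallest value that 3 libraries against 3 can give. A share within a library does not depend on the scaling between libraries. The constitutive subunits still made up the larger part at 4 months, and the ratio of Psmb8 to Psmb5 went from 0.0321 ± 0.00635 to 0.241 ± 0.0146.

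**Figure D2:**
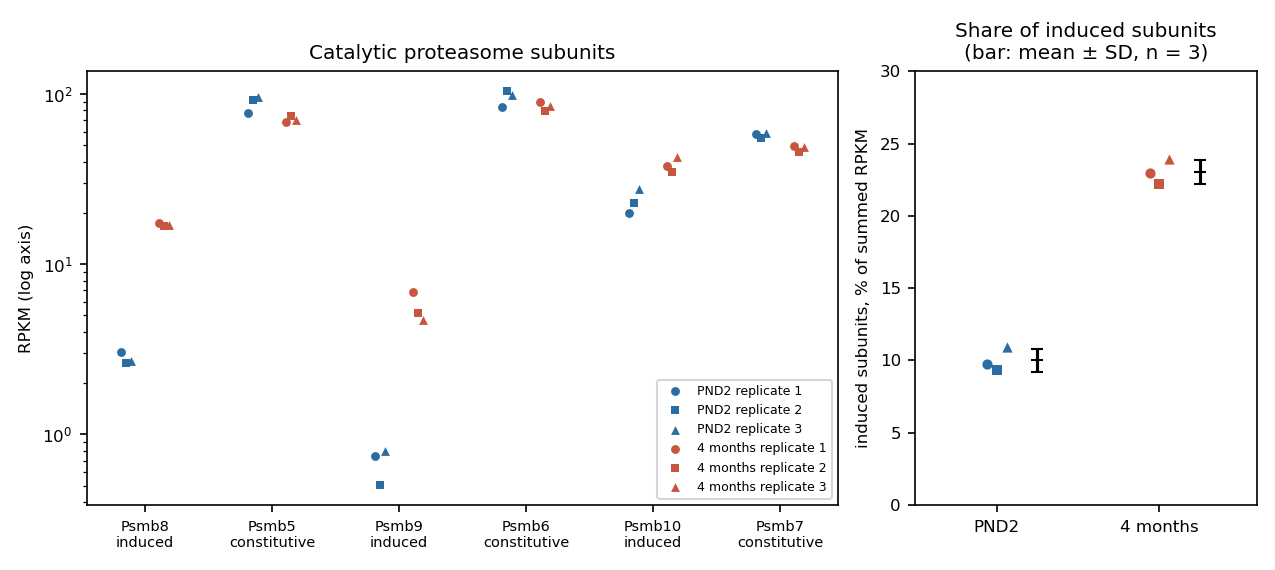
RPKM of the induced and constitutive catalytic proteasome subunits in each library (left, log axis) and the induced subunits as a percentage of the summed RPKM of all 6 (right, points are libraries, bars are mean ± SD of 3). The share lies between 9.34 and 10.9% in the PND2 libraries and between 22.2 and 23.9% in the 4 month libraries.

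Libraries of the same age differed widely in Isg15 and in many antiviral effectors. At PND2 11 of the 57 members differed by more than 2-fold between the highest and the lowest library, a share close to the 19.4% of all genes tested. At 4 months 11 of the 57 did so, again close to the 18.2% of all genes. The median SD between libraries on the log2 scale was 0.231 for members and 0.227 for all genes at PND2. At 4 months it was 0.151 for members and 0.213 for all genes. Isg15, Ifit1, Ifit3, Mx1 and Rsad2 were among the members that differed by more than 2-fold at both ages. Of the 11 at 4 months 10 were highest in replicate 3 and 1 in replicate 1, and of the 11 at PND2 9 were highest in replicate 1 and 2 in replicate 2. Among the 16 effectors 4 months replicate 2 was the lowest adult library in 14, and PND2 replicate 3 was the lowest newborn library in 13. The MHC class I presentation genes followed another order, with PND2 replicate 3 the highest newborn library in 6 of 8. The median ratio of the highest to the lowest adult library was 1.86 for the effectors and 1.16 for the class I genes. No sample label accounts for these differences between pools. The order of the libraries was not counted over all genes, so whether it is particular to the members is not known.

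**Figure D3:**
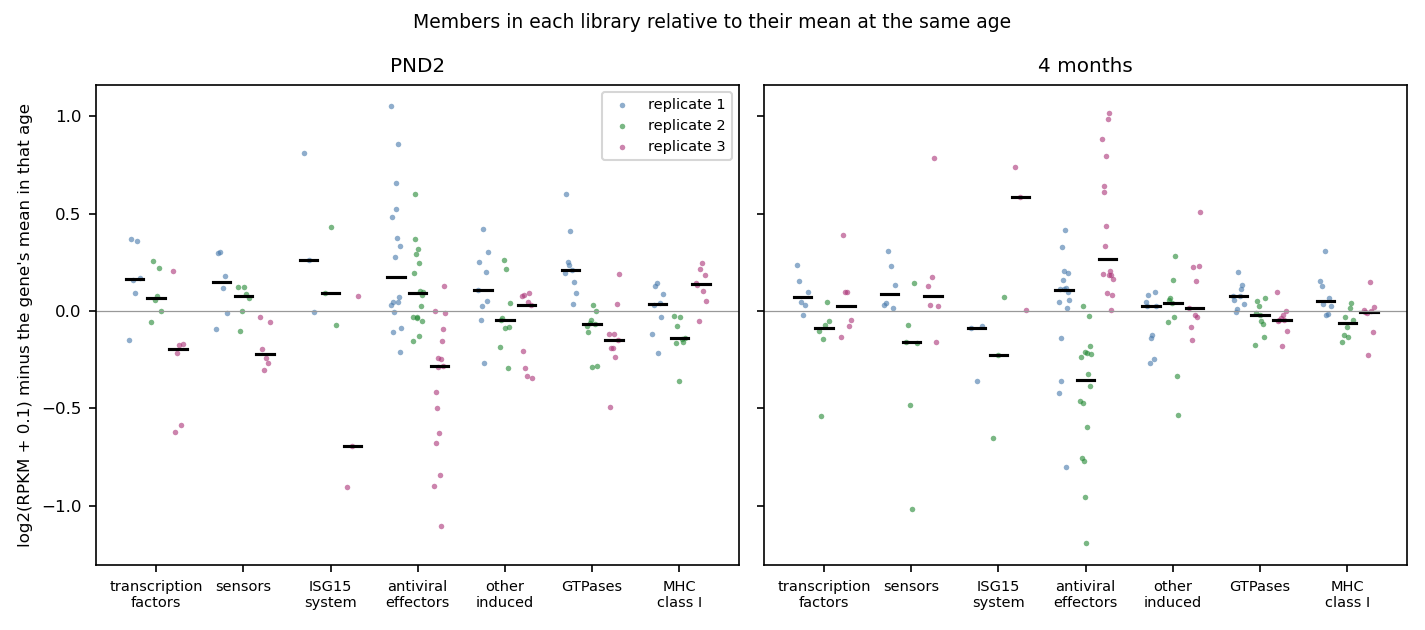
log2(RPKM + 0.1) of each member in each library minus its mean over the 3 libraries of the same age, by role (points are genes, black lines are medians). For the antiviral effectors the median lies at -0.28 in PND2 replicate 3, at -0.35 in 4 months replicate 2 and at 0.27 in 4 months replicate 3, while for MHC class I presentation it lies between -0.14 and 0.14 in all 6 libraries.

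The other genes of the pathway were taken from 9 lists of 123 genes in all, of which 101 could be tested. At 4 months 60 were higher and 6 were lower, against 14.7% and 21.1% of all genes tested. These shares also stand beside the counts of each list below, and no list was tested against them. The ligands had few or no reads at both ages. Of 21 interferon genes 20 were too low to test, and 15 of these had 0 reads in all 6 libraries. A count of 0 allows up to 3 reads in a library, which is counting error only. The remaining 5 had a few reads, at most 5 in a library, too low for a comparison of the ages. Ifnz, annotated as an interferon zeta gene, was the exception at 1.38 ± 0.208 RPKM at PND2 and 0.679 ± 0.165 RPKM at 4 months (limma, adjusted p = 0.038, but 0.10 without 4 months replicate 2), and it did not pass after median scaling.

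The receptor chains were expressed at both ages and, for type I interferon and interferon gamma, moved in opposite directions within the pair. Ifnar1 was 27.6, 32.2 and 28.8 RPKM at PND2 and 19.5, 19.4 and 19.7 RPKM at 4 months, a fall (log2 fold change -0.59, SE 0.10, limma, adjusted p = 0.0034). Ifnar2 was 24.1, 22.8 and 25.9 RPKM at PND2 and 33.3, 32.4 and 34.2 RPKM at 4 months, a rise (log2 fold change 0.46, SE 0.09, limma, adjusted p = 0.0078). For interferon gamma, Ifngr1 rose from 47.1 ± 1.17 to 62.0 ± 3.50 RPKM (limma, adjusted p = 0.0105), and Ifngr2 fell from 55.2 ± 2.03 to 44.7 ± 2.42 RPKM (limma, adjusted p = 0.030, but 0.11 without PND2 replicate 3). The fall of Ifngr2 did not pass after median scaling. Ifnlr1 and Il10rb, the chains for interferon lambda, were 0.994 ± 0.202 and 27.7 ± 2.18 RPKM at PND2 and 1.53 ± 0.560 and 30.7 ± 3.66 RPKM at 4 months, and did not pass. The receptor changes were thus all below 2-fold.

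Several JAK kinases, STATs and IRFs outside the member set were higher and none was lower. Irf8, a factor of myeloid cells, rose 2.16-fold to 3.40 ± 0.379 RPKM, Irf2 1.66-fold to 23.03 ± 1.57 RPKM, Irf5 1.55-fold to 15.8 ± 1.57 RPKM and the kinase Tyk2 1.43-fold to 16.7 ± 0.975 RPKM. The Irf5 call was lost without 4 months replicate 3 and the Tyk2 call without 4 months replicate 1 (limma, adjusted p = 0.0508 and 0.0626). Jak1, Jak2, Stat3 and Irf3 did not pass, with log2 fold changes of -0.11, 0.27, 0.27 and -0.13.

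Of 46 further interferon-induced genes 33 were higher and 1, Slfn9, was lower (log2 fold change -1.83, limma, adjusted p = 0.00069). Ly6a, the surface protein Sca-1, was 48.2, 20.1 and 15.8 RPKM at PND2 and 265, 282 and 363 RPKM at 4 months (log2 fold change 3.59, limma, adjusted p = 0.00062). Ifit3b, a close copy of Ifit3 with which it may share reads, rose from 2.35 ± 1.12 to 19.0 ± 8.10 RPKM. Cd274, which encodes the checkpoint ligand PD-L1, rose from 0.518 ± 0.0810 to 4.66 ± 1.10 RPKM (limma, adjusted p = 0.00029). Cxcl10, a chemokine named after its values were seen, was 0.999, 0.765 and 9.25 RPKM at 4 months and did not pass, with its high value in the same replicate 3 in which Ifit1, Isg15 and Mx1 were highest.

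Of 12 non-classical and Q or T region class I genes 11 were higher, with H2-Q6 going from 4.76 ± 1.52 to 63.3 ± 12.9 RPKM and H2-Q7 from 2.17 ± 0.655 to 23.5 ± 4.01 RPKM. Reads of these genes may be shared with H2-K1 and H2-D1. H2-Q10 rose to 7.83 ± 1.12 RPKM, and Cd1d1, which presents lipids, fell 2.57-fold, a call lost without 4 months replicate 3 (limma, adjusted p = 0.057). Of 8 peptide loading and proteasome activator genes 3 were higher, namely Tapbp, the tapasin that edits class I peptides, its relative Tapbpl and the trimming peptidase Erap1, by 1.92-fold, 2.03-fold and 1.44-fold. The general chaperones of that list did not pass. Of 11 genes that sense nucleic acid upstream of interferon 3 were higher, Tlr3 by 2.13-fold, the adaptor Mavs by 1.41-fold and the adaptor Myd88 by 1.36-fold. Of 7 negative regulators 3 were higher, namely Ptpn6, Irf2bp2 and Pias1, by 1.81-fold, 1.43-fold and 1.35-fold. The Myd88 call was lost without 4 months replicate 3 and the Pias1 call without 4 months replicate 1 (limma, adjusted p = 0.0608 and 0.063).

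**Figure D4:**
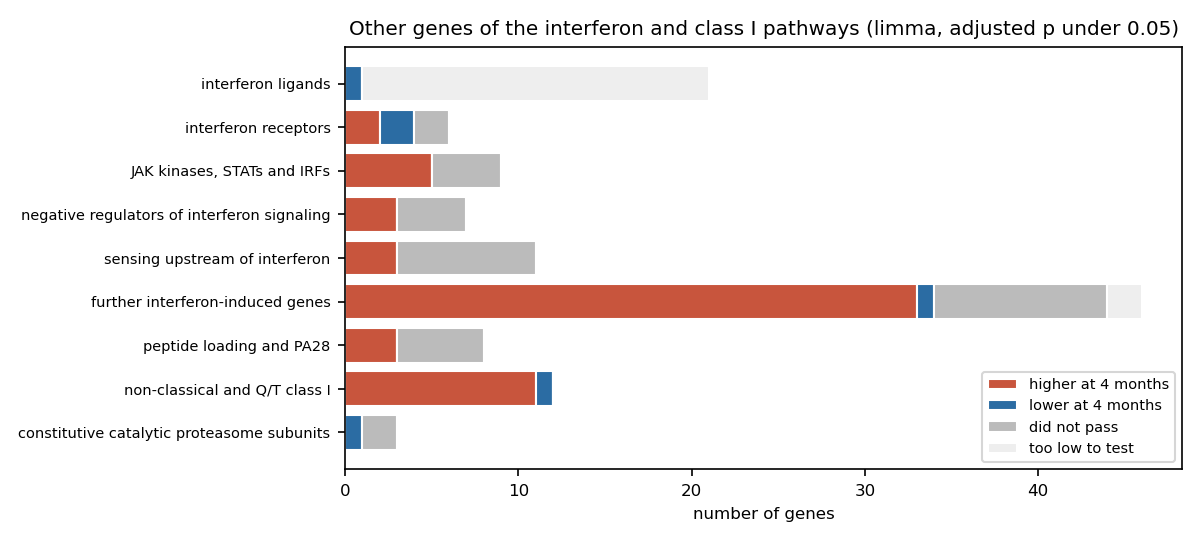
Number of genes in each of the 9 other pathway lists that were higher, lower or did not pass at an adjusted p under 0.05, or were too low to test. 33 of 46 further interferon-induced genes and 11 of 12 non-classical class I genes were higher, against 14.7% of all genes tested. Of the 21 interferon genes 20 were too low to test.

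The valve is a mixture of cells, and in bulk tissue fewer cells of a type and less RNA per cell cannot be told apart. Valve interstitial and fibroblast markers were abundant at both ages, with Col1a1 and Dcn among them, and their summed level was 6619 to 7304 RPKM at PND2 and 8080 to 10191 RPKM at 4 months. Of these 10 markers 2 were higher, Dcn and Lum, and 5 were lower, Col1a1, Col1a2, Col3a1, Postn and Vcan, with a median log2 fold change of -0.45. Of all genes tested 14.7% were higher and 21.1% were lower, and these shares stand beside all marker counts here and below. All 8 endothelial markers were detected, and all were lower at 4 months. Cardiomyocyte markers were also high, at 12219 to 13607 RPKM and 5440 to 8379 RPKM, so the libraries held heart muscle RNA as well as valve RNA.

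Many leukocytes express interferon-induced and class I genes strongly. Pan-leukocyte markers and most macrophage markers moved in the same direction as the members, while the other leukocyte lists were divided, not called or lower. All 4 pan-leukocyte markers were higher, and their summed level was 32.0 to 42.6 RPKM at PND2 and 85.2 to 102 RPKM at 4 months. Of 10 macrophage markers 8 were higher, with sums of 256 to 307 RPKM and 531 to 680 RPKM. For T cells 4 of 8 markers were higher and 1 lower, with sums of 1.59 to 2.18 RPKM and 3.76 to 4.78 RPKM, and Cd3e had 0 reads in every PND2 library. Of 7 dendritic cell markers 3 were higher, with sums of 5.67 to 7.14 RPKM and 12.4 to 14.5 RPKM. Zbtb46, which was not called, made up much of the PND2 sum at 4.56 ± 0.231 RPKM. Of 5 plasmacytoid dendritic cell markers 4 could be tested and 2 were higher. The sums of that list were 9.32 to 9.63 RPKM and 11.3 to 12.2 RPKM. Most of them was Tcf4, which was not called, at 9.01 ± 0.157 and 9.47 ± 0.799 RPKM. The Klk1 call in that list rests on 4, 0 and 0 reads at PND2. Of 6 NK cell markers 3 could be tested, as could 3 of 5 B cell markers, and the others were too low. No marker of NK or B cells was called in either direction, with sums of at most 0.906 and 4.32 RPKM. Neutrophil markers went the other way, 6 of 8 being lower, from 26.8 to 33.2 RPKM down to 0.588 to 1.25 RPKM. The part of any of these cell types in the levels of the members was not tested.

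4 months replicate 2 was the lowest adult library in 36 of the 57 members, a count that was not made over all genes. It had the smallest recovered total of all 6 libraries, 23810507. Of the adult libraries it had the highest adipocyte marker sum, 448 RPKM against 125 and 153 RPKM, and the highest cardiomyocyte sum. Its erythroid and B cell sums were also the highest of that age, at 2158 and 4.32 RPKM, and its macrophage sum was the lowest. Any link between these features and the levels of the members was not tested. Of the 6 adipocyte markers 4 were higher at 4 months, and no erythroid marker was called. When 4 months replicate 2 was left out, 48 members were again higher, and the median log2 fold change of the members was 1.55.

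**Figure D5:**
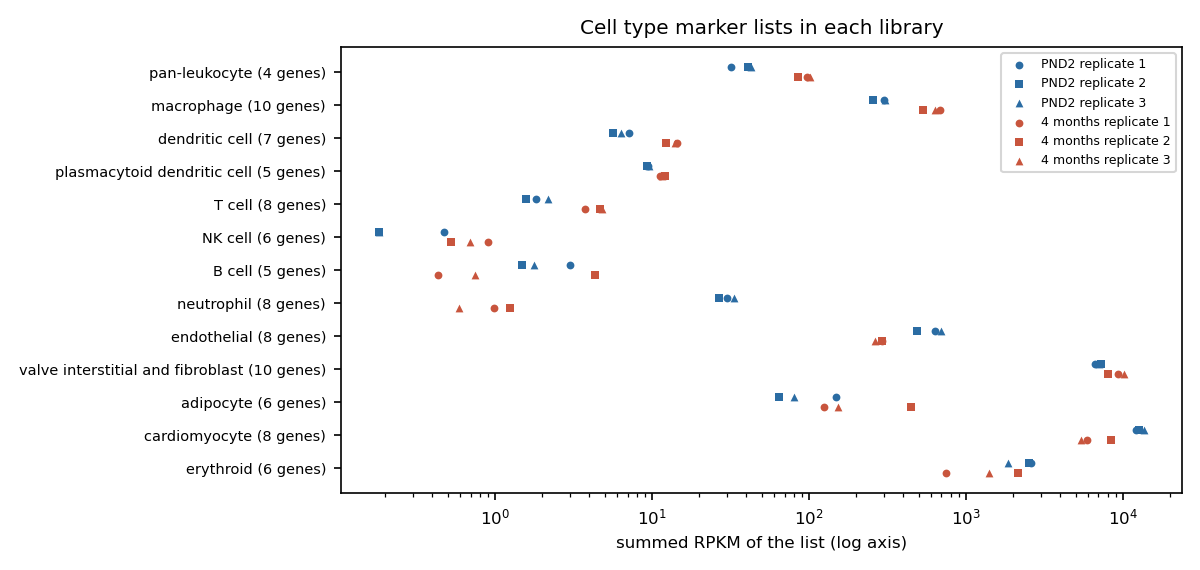
Summed RPKM of each cell type marker list in each library (log axis, a symbol for each replicate). The pan-leukocyte sum lies between 32.0 and 42.6 RPKM at PND2 and between 85.2 and 102 RPKM at 4 months, and the neutrophil sum falls from at least 26.8 to at most 1.25 RPKM.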

How the data were processed

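Per the labels and the study's methods, total RNA of pooled aortic valves was made into stranded TruSeq libraries. The authors aligned the reads to mm10 with TopHat2 2.1.0, counted them on Ensembl release 83 genes with easyRNASeq in R 3.2.2 and deposited RPKM values per gene and per exon. Whether the counting used strand is not given in the sources used here, so values of overlapping genes are uncertain: 26 of the 57 rows overlap another annotated gene, 22 of them in exons.

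From the deposited RPKM, library totals and whole reads were recovered with the exonic lengths (100% of values whole within 0.01 reads), which gives the depth of every value. Intervals of shares and read limits cover counting error only. The log2(RPKM + 0.1) values of all genes that reached 0.1 RPKM in 3 or more libraries were fitted with limma 3.58.1 (R 4.3.3, eBayes, mean-variance trend), and 2-sided p-values were adjusted by Benjamini-Hochberg. Replicates are separate pools, labelled as biological replicates. Replicate numbers were not taken to pair the ages. Python 3.11.15 with pandas 2.3.3, scipy 1.17.1 and matplotlib 3.10.9 made the tables and plots. In simulated data with 200 planted genes among 25903, the fit found 33% of the changes of 1 and 66% of those of 2 on the log2 scale, with 5 false calls. In the real data 3810 genes were called higher and 5463 lower, far more than were planted. The adjustment therefore acted differently there, and the simulated rates do not carry over to the calls reported here.

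The members and lists were chosen with earlier results of these data known. Values in every library are given for all members of 3 roles (factors, ISG15 system, class I presentation), and in the other roles for the most abundant member, the 3 largest called changes and any called member against its role's direction. Receptors, kinases, STATs, IRFs, proteasome subunits and the 3 largest called changes of each other pathway list are named by rule too. Other genes named were chosen after their values were seen. Alternatives were a pseudocount of 1 or 0.01, no filter, a filter at 1 RPKM, no trend, an unequal-variance test of each gene as in the study, median scaling, quantile normalization, voom on the recovered reads, a replicate block, each library left out, and rows without overlap. A fold change above 2 was added after the data were seen. The study's read minimum and floor were not applied, and exon values were used for lengths and totals only. A gene of the pathway lists is not reported here by name.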

Additional observations from a re-analysis of the deposited data

How the results depend on the processing

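With the study's unequal-variance test 24 members and 36 of the other pathway genes were higher and 2 pathway genes lower, and 3 of 7 roles had most of their members called, against 48, 60, 6 and 7. Of all 25903 genes tested, that test called 1466 higher and 1942 lower, against 3810 and 5463 in the main fit. Of the 31 rows that overlap no other gene 24 were higher, against 14.7% of all genes tested, with or without overlap. In the fits that left out a library, 2634 to 3467 of all genes tested were higher and 3403 to 5114 lower. Leaving out a library gave 41 to 48 members higher, 0 to 1 lower, 5 to 7 roles, 53 to 61 pathway genes higher and 2 to 5 lower, a median log2 fold change of the members of 1.38 to 1.63, and a difference of the proteasome share of 12.6 to 13.5 points. The calls of Irf9, Ddx58, Dhx58, Isg15, Oasl1, Parp9 and Gbp7 were lost without 4 months replicate 3, and subsets of these without each of the other libraries (Ddx58 and Oasl1 for PND2 replicate 1, Gbp7 for 4 months replicate 2), while that of Trim25 was lost without PND2 replicate 3, 4 months replicate 1 or 4 months replicate 3. The members lower numbered 2 with an RPKM of at least 1 (Ifitm1 being added), 0 with median scaling, 0 with the replicate block and 0 with a fold change above 2. Pathway genes lower numbered 3 with median scaling and 3 with the replicate block. The median log2 fold change was 1.19 with a pseudocount of 1 and 1.35 over rows without overlap. The longer ISRE form, with CT after the core, stood in 24.4% of the matched members and 0.303% of all genes.

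Median scaling moved the share of higher genes among all called genes from 41.1% to 52.7%, and the members higher from 48 to 49. Signs turned in genes near 0 that were not called: the log2 fold change of Irgm1 was 0.0796 with median scaling and 0.0156 with quantile normalization, and that of Jak1 was 0.0095 with median scaling. Leaving out a library gave -0.116 to 0.0313 for Irgm1, -0.0187 to 0.205 for Eif2ak2 and -0.0386 to 0.156 for Ifitm2. Libraries with the same replicate number deviated from their age means with correlations across genes of 0.04, -0.06 and -0.16. These values show no pairing by replicate number, but they cannot exclude that such pools were collected or handled together. With the replicate block 44 members were higher. The cause of these differences between settings was not tested. Depth limits the interferon genes and members such as Mx1, Oas3 and Zbp1, and 3 pools per age limit every small change.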
